A study of Mus musculus with 38 samples.

Results

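The gastrocnemius muscle of the uninjured leg was compared between young mice given nicotinamide with pyridoxine (NAM/PN) and young mice given vehicle. The members were the libraries whose titles name control or treated gastrocnemius (GA) of the contralateral (CL) leg of young animals, which gave 6 vehicle and 5 NAM/PN libraries, 11 of the 38 in the series, each from a different mouse. All were male C57BL/6JRj mice aged 12 to 13 weeks. NAM/PN mice received 200 mg/kg nicotinamide and 4 mg/kg pyridoxine in 1% sodium carboxymethyl cellulose by daily gavage, and vehicle mice received the carboxymethyl cellulose alone. Every animal had also received cardiotoxin, which destroys muscle fibres, in the muscles of the other leg 5 days before tissue collection, so the muscle called uninjured came from an animal with an injury elsewhere. The wider study included the injured legs and aged mice of 23 to 25 months. The sample descriptions call the young NAM/PN mice Cpd1 and the aged ones CPD2, whereas the characteristics give nicotinamide with vitamin B6 for both.

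Nicotinamide is a form of vitamin B3 that cells convert to the coenzyme NAD, first through the enzyme NAMPT and then through the NMNAT enzymes, and what is not used is methylated by NNMT or oxidised. Pyridoxine is a form of vitamin B6 that cells convert, beginning with pyridoxal kinase, to pyridoxal phosphate, the cofactor of aminotransferases, of glycogen phosphorylase and of many other enzymes. In skeletal muscle, PAX7-positive stem cells lie quiescent beside the fibres, enter the cell cycle after injury and are controlled by Wnt and beta-catenin and by insulin and AKT signalling, among other pathways.

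Total counts ranged from 4128769 to 6717648 in the 11 libraries, and 13141 to 14436 genes had counts. Transcripts of mitochondrial DNA took 22.99% ± 3.33 (SD, n = 6) of counts in vehicle and 22.85% ± 4.12 (SD, n = 5) in NAM/PN muscle. Genes of fast-fibre contraction and energy supply had mean levels of 13.01 to 13.24 in vehicle and 12.86 to 13.19 in NAM/PN muscle. These levels are on the log2(CPM + 1) scale, where CPM is the count scaled to the library size. The liver transcript Alb, which encodes albumin, stood at 225.2 and 506.5 CPM in vehicle replicates 1 and 3. In the other 4 vehicle libraries it ranged from 0 to 3.97 CPM, and in NAM/PN replicates 1 to 5 it was 0, 0, 10.9, 2.02 and 2.20 CPM. Alb was named after its values were seen. Counts of genes past a p threshold, list medians and fold changes of named genes were also computed without the 2 vehicle libraries with liver transcripts. All 5 NAM/PN mice and vehicle replicates 1, 4 and 6 have sample descriptions in the same style, while vehicle replicates 2, 3 and 5 have descriptions in a second style that all aged mice share. What the styles stand for was not given in the sources used here.

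No gene differed between NAM/PN and vehicle in young uninjured muscle at an adjusted p under 0.05. The count was 0 of 12610 genes tested (0%), and the smallest adjusted p in edgeR's quasi-likelihood test with Benjamini-Hochberg adjustment was 0.19. The unadjusted p was under 0.05 for 614 genes (4.87%), of which 304 (2.41%) were higher and 310 (2.46%) lower with NAM/PN. DESeq2 gave 0 adjusted calls, and its unadjusted p was under 0.05 for 642 genes. The values of the 2 groups did not overlap for 88 genes (0.698%), 49 higher (0.389%) and 39 lower (0.309%). The median log2 fold change over all genes was 0.01. In simulated counts with the same 5 and 6 libraries, 45.4% of 2-fold and 85.6% of 4-fold changes were recovered at the same threshold. The 95% interval of the fold change lay within 2-fold in either direction for 8283 genes (65.7%), and for 7245 of the 8244 genes with a mean of at least 5 CPM (87.9%).

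The smallest p-values belonged to the liver transcripts of the 2 vehicle libraries. Each of the 20 genes with the smallest p was higher in both vehicle replicates 1 and 3 than in any of the other 9 libraries. Of 21 tested genes typical of hepatocytes, such as Apoa1, Ttr and Serpina1d, 19 had an unadjusted p under 0.05, and the log2 fold change over all 21 had its median at -5.58. Of the 310 lower genes, 81 were higher in both of these vehicle libraries than in the other 9. The summed level of the liver list ranged from 0.509 to 2000.4 CPM in vehicle and from 5.48 to 58.1 CPM in NAM/PN muscle, with Cyp3a11, Cps1 and Mup20 at 0 in all NAM/PN libraries. Without vehicle replicates 1 and 3, 4 of the 21 genes still passed the filter on low counts, so the list could not be compared with its earlier median. The adjusted count over all genes was then 0 and 454 genes had an unadjusted p under 0.05.

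**Figure D1:**
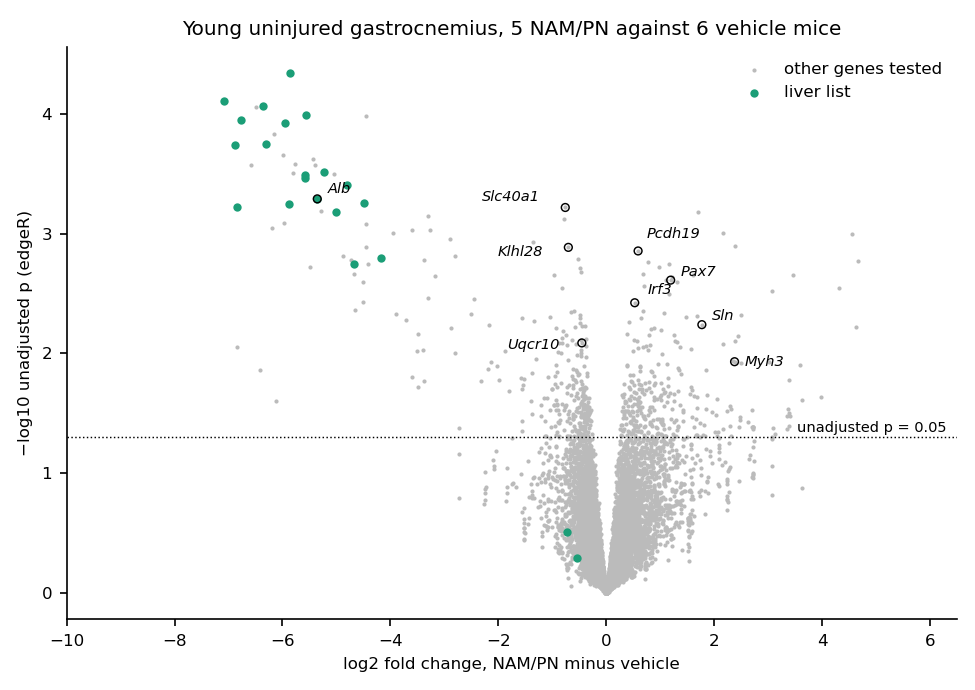
Each point is one of the 12610 genes tested, with the log2 fold change of NAM/PN against vehicle on the x axis and −log10 of the unadjusted edgeR p on the y axis; green points are genes of the liver list and circles mark named genes. The liver list lies at the upper left with a median of -5.58, and no gene passes the adjusted threshold.

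The genes that handle the supplied vitamins gave no adjusted call, and the intervals of some of them reached beyond 2-fold. Of 29 tested genes of NAD synthesis, nicotinamide clearance with methyl-donor supply, and vitamin B6 handling, 0 passed the adjusted test, and for 16 of them the 95% interval lay within 2-fold. The 13 genes of NAD synthesis had a median log2 fold change of -0.09, with 6 positive and 7 negative, and 0 had an unadjusted p under 0.05. Nampt, the rate-limiting enzyme that uses nicotinamide, was measured at 84.0, 87.6, 88.7, 98.2 and 81.1 CPM in NAM/PN replicates 1 to 5, and at 60.1 to 105 CPM (median 92.1) in vehicle muscle. All NAM/PN values lay inside the vehicle range, and the log2 fold change was 0.02 (95% interval -0.46 to 0.51). Nmrk2, the muscle kinase for nicotinamide riboside, gave 319, 568.4, 468, 307 and 281 CPM against 173 to 884 CPM (median 366) in vehicle, a log2 fold change of -0.17 ± 0.39 (SE). The vehicle range exceeded that of NAM/PN on both sides. Nmrk1, the general form of that kinase, had a log2 fold change of 0.33 ± 0.26 (SE), and Slc25a51, the carrier that brings NAD into mitochondria, 0.21 ± 0.21 (SE).

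The genes of nicotinamide clearance and methyl-donor supply gave a median log2 fold change of -0.28 over 11 genes. Of these 9 were negative, where 47.5% of all genes were. Nnmt, which methylates nicotinamide, was near the limit of detection at 0, 0.472, 2.98, 3.03 and 0.732 CPM with NAM/PN and at 0.255 to 3.37 CPM (median 1.73) with vehicle, and the groups overlapped. Aox1, an aldehyde oxidase that acts on methylnicotinamide and on pyridoxal, had a log2 fold change of -0.28 ± 0.25 (SE). Gnmt and Cbs are liver-rich enzymes that consume methyl donors and homocysteine. They were the 2 genes of the list with an unadjusted p under 0.05, where 2.46% of all genes were lower at that level. Their highest values, 29.1 and 10.5 CPM for Gnmt and 7.05 and 4.36 CPM for Cbs, stood in vehicle replicates 3 and 1, the libraries with liver transcripts. Without these libraries 0 genes of the list had an unadjusted p under 0.05 and the median was -0.10.

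Vitamin B6 handling had a median log2 fold change of -0.21 over 6 genes, and 0 had an unadjusted p under 0.05. Of the 6 genes 5 were negative, where 47.5% of all genes were. Pdxk, the kinase that activates pyridoxine, was measured at 8.97, 11.1, 6.96, 12.7 and 13.2 CPM with NAM/PN and at 9.14 to 21.1 CPM (median 11.8) with vehicle. Its log2 fold change was -0.31 ± 0.22 (SE), and it was positive when only the vehicle mice described in the style of the NAM/PN mice were used (0.13). Alpl, a phosphatase that frees pyridoxal from its phosphate outside the cell, had a log2 fold change of -0.72 ± 0.43 (SE). Among 35 enzymes that use pyridoxal phosphate the median was -0.07, and Cbs and Phykpl (-0.41 ± 0.18, SE) were the 2 genes with an unadjusted p under 0.05. They made up 5.71% of the list, close to the 4.87% of all genes at that level. Among 23 enzymes that consume NAD the median was 0.06 with 0 genes at that level. Tnks, a tankyrase, differed by 0.28 ± 0.15 (SE) and the mitochondrial deacetylase Sirt3 by -0.38 ± 0.24 (SE), both with an adjusted p of 0.995 in edgeR's test.

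**Figure D2:**
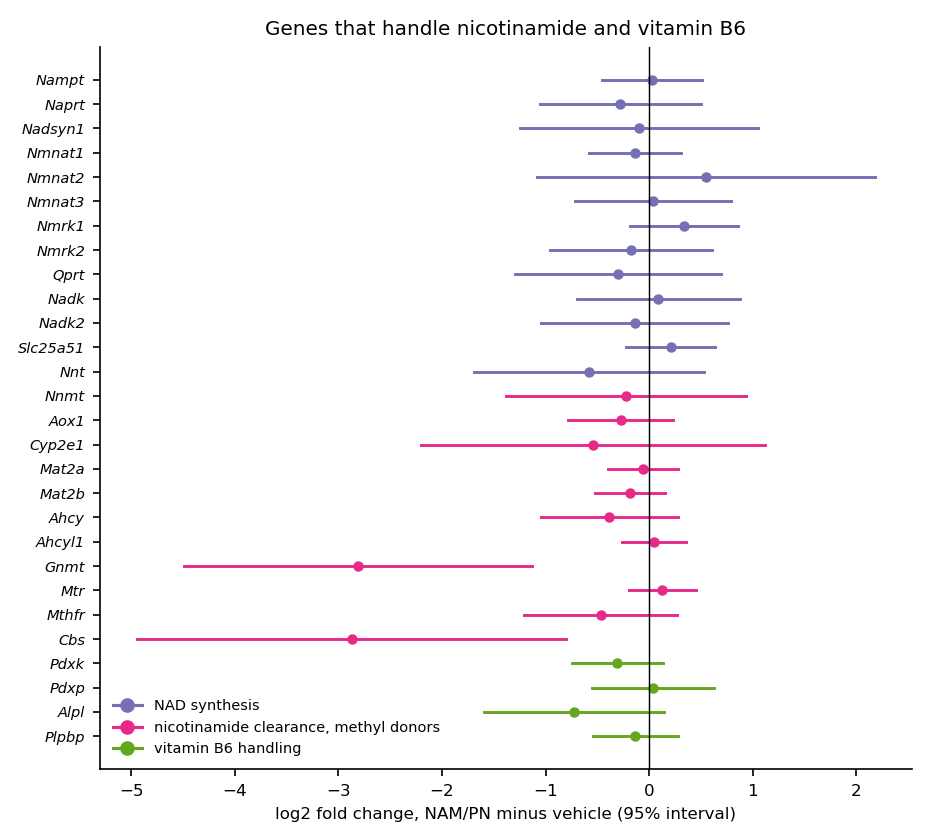
Points are edgeR log2 fold changes of NAM/PN against vehicle and bars their 95% intervals, for tested genes of 3 vitamin pathways; Aox1, a member of 2 of the lists, is drawn once. Every interval drawn includes 0 except those of Gnmt and Cbs, whose highest values stand in the libraries with liver transcripts.

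Signalling genes tied to stem cell control gave medians close to 0 in the fit of all 38 libraries. The 17 genes of casein kinase 1 and beta-catenin control had a median log2 fold change of -0.02, and for 0 of them the unadjusted p was under 0.05. Csnk1a1, which encodes the alpha form of casein kinase 1 that marks beta-catenin for degradation, was measured at 214, 215, 240.2, 233 and 242 CPM with NAM/PN and at 238 to 275 CPM (median 262) with vehicle. NAM/PN replicates 3 and 5 lay inside the vehicle range and the other 3 below it, and the log2 fold change was -0.18 ± 0.12 (SE, adjusted p = 0.995 in edgeR's test). Ctnnb1, beta-catenin itself and chosen after its values were seen, gave 220.2, 219, 219.8, 193 and 174 CPM against 157 to 189 CPM (median 177), a log2 fold change of 0.22 ± 0.21 (SE). Replicates 1 to 4 lay above every vehicle library and replicate 5 did not. Of the 18 listed beta-catenin targets, 9 passed the filter on low counts, which used all 38 libraries, with a median of -0.04. Their summed level was 29.6 to 42.6 CPM with vehicle and 33.5 to 50.9 CPM with NAM/PN. In a fit of the 11 libraries alone 4 of them passed, with a median of 0.21. Nkd2, a Wnt feedback inhibitor, was the 1 gene of the 9 at an unadjusted p under 0.05 (0.46 ± 0.23, SE). Over all genes 2.41% were higher at that level. The 18 genes of insulin, AKT and mTOR signalling had a median of 0.02 with 0 genes at that level, among them Igf1 (0.39 ± 0.23, SE) and Akt2 (0.28 ± 0.24, SE).

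Pax7, the transcription factor of quiescent muscle stem cells, was the gene of the stem cell and myogenesis list with the smallest p. It was measured at 5.23, 6.38, 4.97, 5.86 and 3.85 CPM in NAM/PN replicates 1 to 5, and at 0.509 to 3.07 CPM (median 2.63) in vehicle muscle. Every NAM/PN library lay above every vehicle library. The log2 fold change was 1.19 (95% interval 0.45 to 1.94), a fitted 2.29-fold difference, with an unadjusted p of 0.00244 and an adjusted p of 0.44 in edgeR's test. The gene, ENSMUSG00000028736, lies on the minus strand of chromosome 4 at 139737062 to 139833528 of GRCm38.

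The difference in Pax7 kept its sign under each alternative, with log2 fold changes of 0.95 to 1.32 and adjusted p-values of 0.276 at the lowest. The unadjusted p was 0.0723 when only vehicle replicates 4 and 6 were kept, that is without liver transcripts and in the style of the NAM/PN mice. In aged uninjured muscle the corresponding log2 fold change was -0.34 ± 0.37 (SE), with 3.15 CPM ± 1.69 (SD, n = 6) in vehicle and 2.52 CPM ± 1.27 (SD, n = 6) in NAM/PN mice. The difference between the young and the aged effect was 1.53 ± 0.52 (SE, adjusted p = 0.709 in edgeR's interaction test). In injured young muscle Pax7 stood at 18.3 CPM ± 7.30 (SD, n = 5) with vehicle and 19.7 CPM ± 2.42 (SD, n = 3) with NAM/PN.

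Other stem cell genes lay partly in the same direction. Of 17 tested genes of the list, 14 were positive and 3 negative, with a median of 0.25, where 52.4% of all genes were positive. The median was 0.05 without NAM/PN replicates 4 and 5, with 6 genes negative, and 0.07 without vehicle replicate 5. In a fit of the 11 libraries alone 13 of the 17 genes passed the filter on low counts, with a median of 0.29. The mean level of the list was 2.61, 2.69 and 2.64 on the log2(CPM + 1) scale in NAM/PN replicates 1 to 3, inside the vehicle range of 2.40 to 2.74, and 3.18 and 2.97 in replicates 4 and 5, above it. Besides Pax7, the cell adhesion genes Cdh15 and Vcam1, chosen after their values were seen, were higher at an unadjusted p under 0.05. The log2 fold change was 0.45 ± 0.21 (SE) for Cdh15, which encodes M-cadherin, and 0.77 ± 0.37 (SE) for Vcam1. Sdc4, a syndecan of the stem cell surface, was lower (-0.55 ± 0.24, SE). Over all genes 2.41% were higher and 2.46% lower at an unadjusted p under 0.05. Cdh15 gave 17.4, 16.3, 10.4, 17.2 and 12.1 CPM against 7.64 to 13.2 CPM (median 11.1), so that replicates 3 and 5 overlapped the vehicle libraries. Vcam1, which endothelium and macrophages also express, gave 4.98, 9.45, 3.97, 8.48 and 6.59 CPM against 1.84 to 5.52 CPM (median 3.97). The summed level of the list was 145 to 182 CPM with vehicle and 169.7 to 228 CPM with NAM/PN. In bulk muscle, more cells of a type and more RNA per cell cannot be told apart. Cell cycle genes had a median of 0.37 over 19 genes, 1 of them at an unadjusted p under 0.05. The median was -0.15 when NAM/PN replicates 4 and 5 were left out. These genes passed a filter on low counts that used all 38 libraries, injured legs included. In a fit of the 11 libraries alone 4 of them passed, with a median of -0.075. Their summed level was low, at 28.5 to 51.0 CPM with vehicle and 31.8 to 46.7 CPM with NAM/PN.

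Across all genes tested, 12 that were higher and 8 that were lower had an unadjusted p under 0.05, a log2 fold change of 0.5 or more in size, 5 CPM or more on average and groups that did not overlap, liver and mitochondrially encoded genes aside. The 6 higher genes with the smallest p were Pcdh19, Eml3, Irf3, Map1b, Sln and Sfxn1. Irf3, a transcription factor of the interferon response, was measured at 26.4, 33.8, 27.8, 24.04 and 26.7 CPM with NAM/PN and 12.8 to 23.8 CPM (median 20.2) with vehicle, a log2 fold change of 0.53 ± 0.17 (SE, adjusted p = 0.588 in edgeR's test). The 18 interferon-stimulated genes had a median of -0.05, and for 0 of them the unadjusted p was under 0.05. Map1b, a microtubule protein, gave 84.7, 78.4, 72.5, 118 and 78.7 CPM against 37.4 to 68.3 CPM (median 55.3), a log2 fold change of 0.68 ± 0.22 (SE). Sln encodes sarcolipin, the inhibitor of the calcium pump of the sarcoplasmic reticulum. It showed the widest spread of the 6, at 9.22, 23.9, 31.0, 14.5 and 8.97 CPM against 2.32 to 8.91 CPM (median 4.49), a log2 fold change of 1.77 (95% interval 0.55 to 3.00, adjusted p = 0.709 in edgeR's test). NAM/PN replicates 1 and 5 lay just above the highest vehicle library. Pcdh19, a protocadherin, differed by 0.59 ± 0.17 (SE), Eml3, a microtubule-associated protein, by 0.69 ± 0.21 (SE) and Sfxn1, a mitochondrial serine carrier, by 0.51 ± 0.18 (SE).

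The 6 lower genes with the smallest p were Slc40a1, Klhl28, Grpel1, Gtf3a, Lifr and Tmem185a. Slc40a1 encodes ferroportin, the iron exporter of the cell membrane. It was measured at 15.9, 11.8, 12.9, 18.99 and 17.03 CPM with NAM/PN and at 20.1 to 29.4 CPM (median 27.3) with vehicle. All NAM/PN libraries were below all vehicle libraries, and the log2 fold change was -0.76 (95% interval -1.17 to -0.35), with an unadjusted p of 6.05e-04 and an adjusted p of 0.279 in edgeR's test. In aged uninjured muscle Slc40a1 stood at 14.5 CPM ± 2.47 (SD, n = 6) with vehicle and 14.9 CPM ± 3.42 (SD, n = 6) with NAM/PN, so that young NAM/PN muscle, at 15.3 CPM ± 2.95 (SD, n = 5), had a mean close to both. The difference between the young and the aged effect was -0.80 ± 0.28 (SE, adjusted p = 0.709 in edgeR's interaction test).

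Grpel1, a cochaperone of mitochondrial protein import, gave 35.4, 38.5, 29.3, 41.0 and 42.8 CPM against 46.7 to 63.4 CPM (median 52.4), a log2 fold change of -0.52 ± 0.15 (SE, adjusted p = 0.398 in edgeR's test). Lifr, the receptor of leukaemia inhibitory factor, gave 64.0, 73.9, 64.3, 72.9 and 63.9 CPM against 82.2 to 187 CPM (median 105), a log2 fold change of -0.75 ± 0.26 (SE). The highest vehicle value stood apart from the other 5, which reached 107 CPM. Klhl28, a kelch-repeat protein, differed by -0.70 ± 0.20 (SE), Gtf3a, transcription factor IIIA of the 5S ribosomal RNA genes, by -0.59 ± 0.20 (SE) and the membrane protein gene Tmem185a by -0.56 ± 0.20 (SE).

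**Figure D3:**
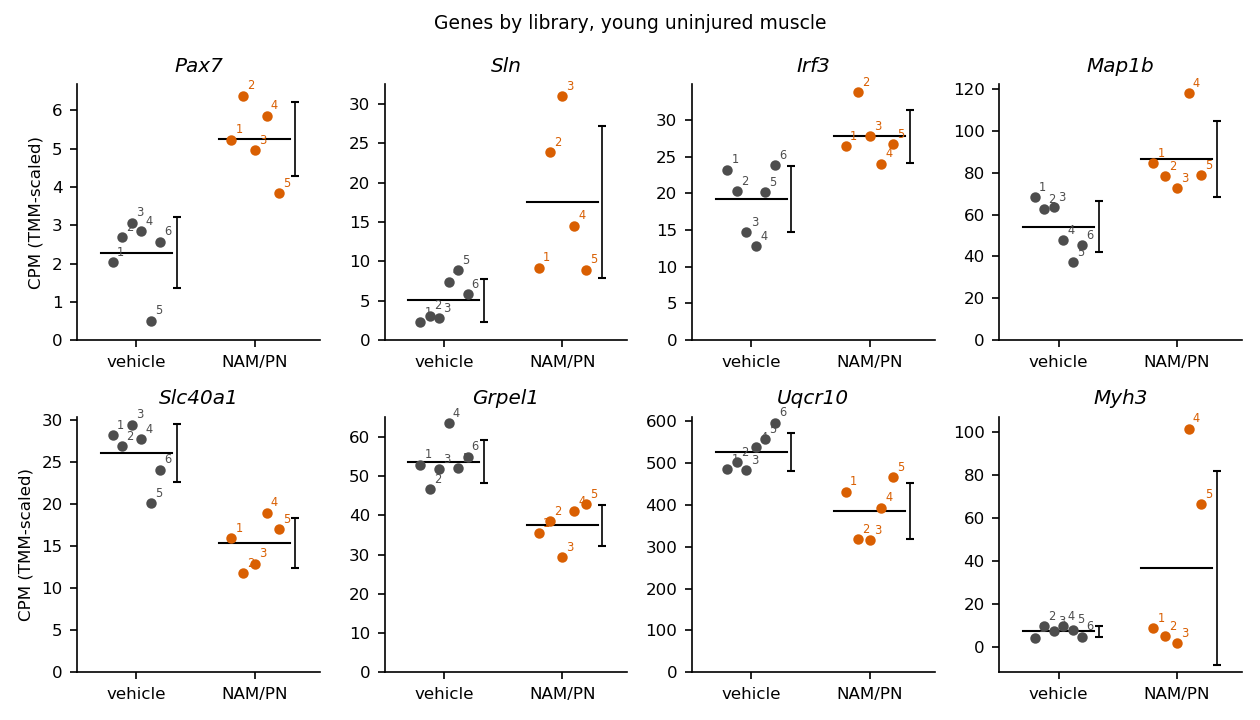
Points are TMM-scaled CPM of single libraries, numbered by replicate, for 6 vehicle and 5 NAM/PN mice; the line is the mean and the bar beside it 1 SD. Groups do not overlap for Pax7, Sln, Irf3, Map1b, Slc40a1, Grpel1 and Uqcr10, none of which passes the adjusted test, while Myh3 is high in NAM/PN replicates 4 and 5 alone.

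Nuclear genes of oxidative phosphorylation, the subunits of the respiratory chain and ATP synthase, leaned lower with NAM/PN by a small amount. Of 75 genes, 68 had a negative log2 fold change against 47.5% of all genes tested, and the median was -0.23. At an unadjusted p under 0.05, 14 were lower and 0 higher, against 2.46% and 2.41% of all genes. In the adjusted test 0 passed. By complex, 32 of 35 genes of complex I, 8 of 9 of complex III, 11 of 11 of complex IV and 15 of 16 of ATP synthase were negative, with medians of -0.23, -0.38, -0.25 and -0.20, while complex II had 2 of 4 negative. Uqcr10, a small subunit of complex III, was measured at 432, 318, 316, 393 and 465.7 CPM with NAM/PN and at 482 to 596 CPM (median 520) with vehicle. The groups did not overlap, and the log2 fold change was -0.45 ± 0.16 (SE, adjusted p = 0.792 in edgeR's test). Uqcrh, another subunit of complex III, gave 535, 406, 422, 637 and 695 CPM against 651 to 865 CPM (median 749.9), a log2 fold change of -0.48 ± 0.17 (SE). Cox4i1, a subunit of complex IV chosen after its values were seen, gave 452, 378, 342, 613 and 691 CPM against 578 to 744 CPM (median 672). For Uqcrh and Cox4i1, replicates 1 to 3 lay below every vehicle library and replicate 5 did not.

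The lower values stood in 3 of the 5 NAM/PN mice. The mean level of the 75 genes was 7.69, 7.56 and 7.63 on the log2(CPM + 1) scale in NAM/PN replicates 1 to 3, below the vehicle range of 7.93 to 8.12, and 8.02 and 8.14 in replicates 4 and 5. In replicates 1, 2 and 3, 49, 57 and 56 of the 75 genes were below all vehicle libraries. Replicate 4 had 12 such genes and replicate 5 had 4. Over all genes tested, 15.4%, 15.1%, 18.6%, 10.7% and 11.1% were below all vehicle libraries in replicates 1 to 5. For the 75 genes the shares were 65.3%, 76%, 74.7%, 16% and 5.33%. Each vehicle library had 3 to 28 of the genes below the other 5 vehicle libraries. All 25 genes of fatty acid oxidation and PPAR targets had a negative log2 fold change (median -0.37), with 4 of them at an unadjusted p under 0.05. Over all genes tested 47.5% were negative and 2.46% lower at that level. In NAM/PN replicates 1, 2 and 3, 12, 15 and 15 of the 25 genes were below all vehicle libraries, in replicates 4 and 5 none was, and each vehicle library had 0 to 13 below the other 5. Ppara, the nuclear receptor that drives these genes, gave 3.24, 1.65, 3.73, 10.9 and 13.9 CPM against 4.65 to 45.3 CPM (median 12.04), a log2 fold change of -1.40 ± 0.60 (SE). Ucp3, the uncoupling protein of muscle, which was chosen after its values were seen, differed by -0.85 ± 0.39 (SE). Of 9 tested genes encoded by mitochondrial DNA, 7 were negative, with a median of -0.36 and 0 at an unadjusted p under 0.05. NAM/PN replicates 1 to 5 had 2, 7, 7, 0 and 0 of these genes below all vehicle libraries. Each vehicle library had 0 to 4 below the other 5. When the 2 libraries with liver transcripts were left out, the medians were -0.23 for oxidative phosphorylation and -0.39 for fatty acid oxidation.

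The libraries also differed in the genes of slow fibres, in both groups. The mean level of 13 slow-fibre contractile genes was 4.91, 2.48, 2.30, 7.12 and 6.57 on the log2(CPM + 1) scale in NAM/PN replicates 1 to 5 and ranged from 3.09 to 7.75 in vehicle mice. Myh7 and Myh2 were chosen after their values were seen. Myh7, the slow myosin heavy chain, ranged from 0.857 to 495 CPM with vehicle and was 39.4, 1.18, 0.248, 159 and 76.9 CPM with NAM/PN. Myh2, the myosin of fast oxidative fibres, ranged from 373 to 3460 CPM with vehicle and was 359.5, 17.95, 87.4, 3602 and 3148 CPM with NAM/PN. NAM/PN replicates 2 and 3 thus had low and replicates 4 and 5 high levels of both. The log2 fold change was -1.45 ± 1.28 (SE) for Myh7 and -0.35 ± 0.98 (SE) for Myh2, and 0 of the 13 slow-fibre genes had an unadjusted p under 0.05.

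A fit of the 11 libraries with the slow-fibre level as a covariate was chosen after seeing the data. Its median was -0.17 for oxidative phosphorylation and -0.10 for fatty acid oxidation. The fit of the same 11 libraries without the covariate gave -0.22 and -0.32. With NAM/PN replicates 4 and 5 left out, also chosen after seeing the data, the medians were -0.39 and -0.96, and that of the slow-fibre genes was -3.13. No gene passed the adjusted test in either fit. With only the vehicle mice described in the style of the NAM/PN mice, the median of oxidative phosphorylation was -0.25 and that of fatty acid oxidation -0.07.

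**Figure D4:**
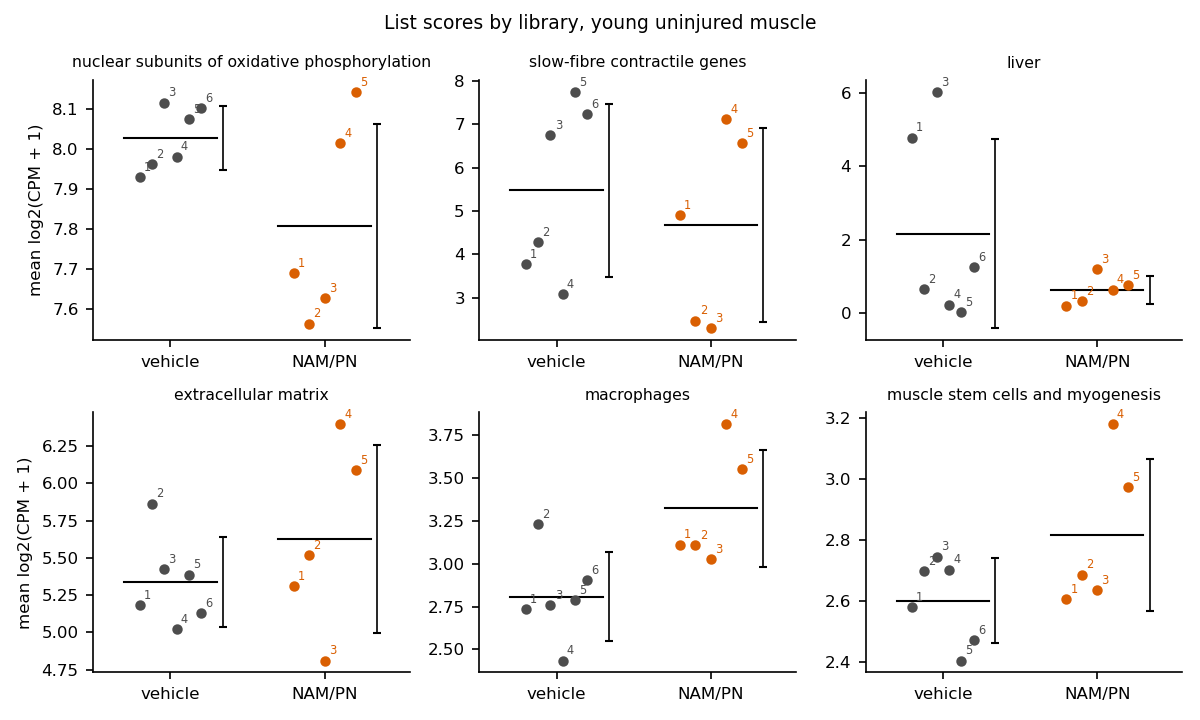
Points are the mean log2(CPM + 1) over the genes of a list in single libraries, numbered by replicate; the line is the mean of the group and the bar 1 SD. NAM/PN replicates 1 to 3 lie below all vehicle libraries for oxidative phosphorylation (7.56 to 7.69 against 7.93 to 8.12), replicates 4 and 5 are the highest for extracellular matrix and macrophage genes, and vehicle replicates 1 and 3 are the highest for liver genes.

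NAM/PN replicates 4 and 5 carried more transcripts of embryonic and perinatal myosin heavy chains than every other young uninjured library. Myh3, the embryonic myosin heavy chain, which was chosen after its values were seen, was measured at 8.47, 4.72, 1.49, 101 and 66.3 CPM in NAM/PN replicates 1 to 5 and at 3.78 to 9.42 CPM (median 7.47) with vehicle. Replicates 1 to 3 lay within or below the vehicle range. The log2 fold change was 2.38 ± 0.90 (SE, adjusted p = 0.927 in edgeR's test), and -0.53 without replicates 4 and 5. Vehicle injured muscle of young mice held 495 to 1159.8 CPM of Myh3, and vehicle uninjured muscle of aged mice 2.23 to 249 CPM. Myh8, the perinatal myosin heavy chain and also chosen after its values were seen, gave 15.9, 14.2, 7.45, 173 and 113 CPM against 5.52 to 27.5 CPM (median 8.14).

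Extracellular matrix genes followed the same 2 mice. Of 25 genes, 22 were positive and the median was 0.39 on the log2 scale, while 4 were higher and 0 lower at an unadjusted p under 0.05. Over all genes the shares were 52.4% positive, 2.41% higher and 2.46% lower. Col1a1, a chain of type I collagen chosen after its values were seen, gave 450.4, 475, 119.97, 1453 and 769 CPM against 226 to 556 CPM (median 328), a log2 fold change of 0.93 ± 0.48 (SE). Lox, the enzyme that crosslinks collagen, gave 11.5, 10.2, 9.94, 37.8 and 24.2 CPM against 6.78 to 16.1 CPM (median 9.28), a log2 fold change of 0.91 ± 0.37 (SE). In replicates 4 and 5, 19 and 17 of the 25 genes were above all vehicle libraries, compared with 3, 4 and 0 in replicates 1 to 3. Vehicle replicate 2 had 18 above the other vehicle libraries. Over all genes the shares above were 16.3%, 17%, 20%, 14.1% and 13.4% in NAM/PN replicates 1 to 5, and 17% in vehicle replicate 2. Without NAM/PN replicates 4 and 5 the median was -0.10. At the neuromuscular junction, Chrng, the fetal subunit of the acetylcholine receptor, gave 1.49, 0.945, 0.497, 10.5 and 7.69 CPM against 0 to 2.00 CPM (median 0.824), and Dok7, an activator of the receptor kinase MuSK, gave 11.96, 8.98, 13.9, 13.1 and 16.8 CPM against 12.3 to 20.1 CPM (median 19.005). The log2 fold changes were 2.30 ± 1.10 (SE) and -0.44 ± 0.21 (SE). Chrng was near the limit of detection in vehicle muscle. Of the 12 genes of the list 9 were positive and 3 negative, 2 were higher and 1 lower at an unadjusted p under 0.05, and the median was 0.34, or 0.20 without NAM/PN replicates 4 and 5. The filter on low counts used all 38 libraries, injured legs included. In a fit of the 11 libraries alone 10 of the 12 genes passed it, with a median of 0.16.

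Macrophage genes were positive in all 15 cases. Their median on the log2 scale was 0.59, and for 2 of them the unadjusted p was under 0.05, where 52.4% of all genes were positive and 2.41% higher at that level. C1qa, a chain of the complement protein C1q that tissue macrophages make, was measured at 46.6, 32.4, 32.04, 58.8 and 68.7 CPM with NAM/PN and at 16.8 to 32.03 CPM (median 25.5) with vehicle. The groups did not overlap, although NAM/PN replicate 3 lay at the upper edge of the vehicle range. The log2 fold change was 0.94 (95% interval 0.13 to 1.76, adjusted p = 0.995 in edgeR's test). Tyrobp, an adaptor of myeloid receptors, gave 4.98, 4.02, 3.73, 9.49 and 8.06 CPM against 0.571 to 3.82 CPM (median 2.162), a log2 fold change of 1.33 ± 0.63 (SE). The summed level of the list was 125 to 260.4 CPM with vehicle and 196 to 368 CPM with NAM/PN, and no listed gene was at 0 in a whole group. The median was 0.26 without NAM/PN replicates 4 and 5 and 0.49 without the 2 libraries with liver transcripts. In a fit of the 11 libraries alone 12 of the 15 genes passed the filter on low counts. Their median was 0.56 and 0 were negative. In aged uninjured muscle the median of the same 15 genes was -0.89, with 7 genes lower and 0 higher at an unadjusted p under 0.05, against 3.07% lower and 1.04% higher over all genes. The difference between the ages was 1.56 ± 0.55 (SE) for C1qa and 2.64 ± 0.82 (SE) for Tyrobp, both with an adjusted p of 0.709 in edgeR's interaction test.

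**Figure D5:**
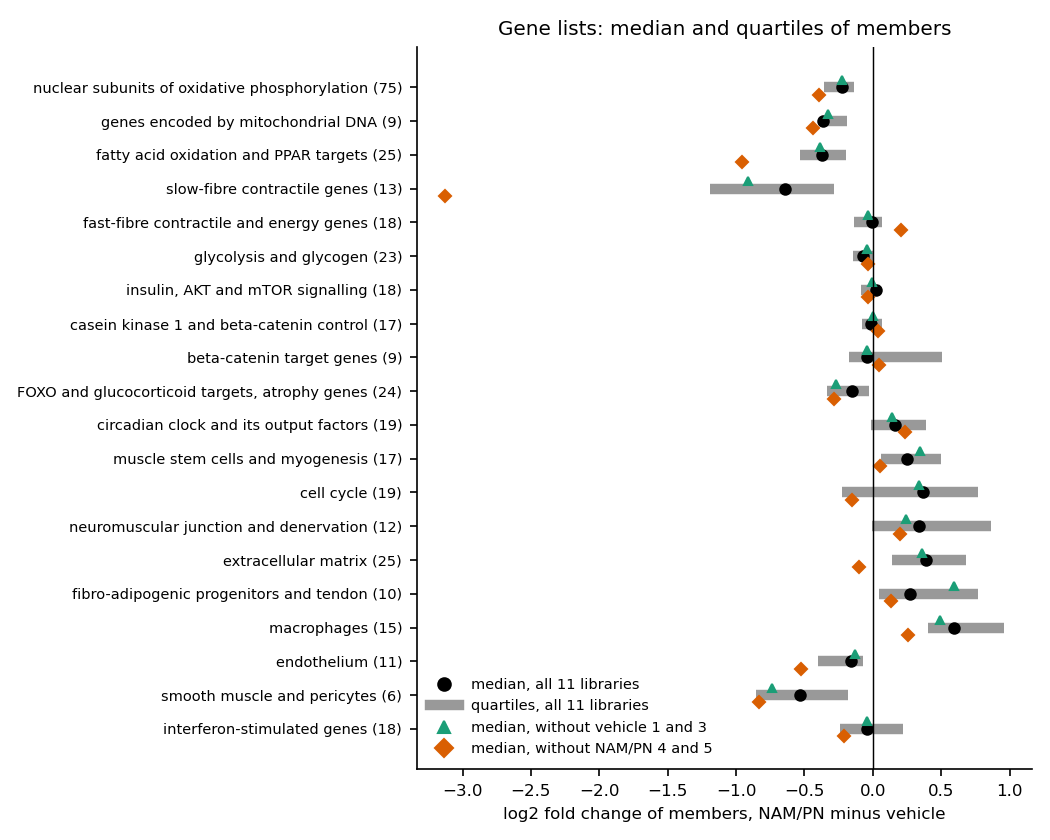
Circles are medians of the log2 fold change of NAM/PN against vehicle over the tested genes of 20 lists and bars run from the lower to the upper quartile; triangles leave out vehicle replicates 1 and 3 and diamonds NAM/PN replicates 4 and 5. The median of the slow-fibre list goes from -0.64 to -3.13, that of fatty acid oxidation from -0.37 to -0.96 and that of extracellular matrix from 0.39 to -0.10 without NAM/PN replicates 4 and 5.

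Of 11 endothelial genes 9 had a negative log2 fold change, where 47.5% of all genes did, and 1 was lower at an unadjusted p under 0.05. The median was -0.16, but -0.52 without NAM/PN replicates 4 and 5 and -0.42 without replicate 4 alone. Cdh5, the cadherin of endothelial junctions, gave 17.2, 15.1, 12.7, 23.03 and 22.5 CPM against 21.5 to 29.98 CPM (median 24.8), a log2 fold change of -0.49 ± 0.16 (SE, adjusted p = 0.669 in edgeR's test). Replicates 1 to 3 lay below the vehicle range and replicates 4 and 5 inside it. Of 6 smooth muscle and pericyte genes 5 were negative, with a median of -0.53 and 3 at an unadjusted p under 0.05, where 2.46% of all genes were lower at that level. The median was -0.19 without vehicle replicate 6, whose mean level of 5.66 was the highest of the vehicle range of 4.06 to 5.66 on the log2(CPM + 1) scale. NAM/PN replicates 1, 2, 4 and 5 lay inside that range and replicate 3, at 3.97, below it. Among them Cnn1, calponin, differed by -1.53 ± 0.61 (SE) and Tagln, transgelin, by -0.93 ± 0.40 (SE), both with overlapping groups.

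Targets of FOXO factors and glucocorticoids, which include the genes of muscle atrophy, had a median of -0.15 over 24 genes, 18 of them negative and 2 lower at an unadjusted p under 0.05, where 47.5% of all genes were negative and 2.46% lower at that level. With vehicle mice in the description style of the NAM/PN mice the median was -0.02, with 12 of 23 genes negative. It was 0.06 with the style as a covariate and -0.06 without vehicle replicate 5. Zbtb16, a glucocorticoid-induced transcription factor, gave 37.1, 41.6, 31.5, 63.2 and 55.7 CPM against 61.02 to 148.5 CPM (median 79.8), a log2 fold change of -0.94 ± 0.38 (SE). NAM/PN replicate 4 overlapped the vehicle libraries. Sgk1, a kinase that glucocorticoids induce, differed by -0.56 ± 0.24 (SE). Of 19 clock genes and outputs, Nfil3 was lower (-0.81 ± 0.29, SE) and Bhlhe40 higher (0.64 ± 0.31, SE) at an unadjusted p under 0.05. Over all genes 2.46% were lower and 2.41% higher at that level. The median of the clock list was 0.16. With vehicle mice in the description style of the NAM/PN mice it was 0.006, with 0 genes higher and 0 lower at that level. The 18 genes of fast fibres had a median of 0.00 with 0 genes at that level.

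The response of young uninjured muscle was also tested against those of aged uninjured and of young injured muscle. Against aged muscle, edgeR's interaction test called 0 of 12610 genes (0%) at an adjusted p under 0.05, and 706 genes (5.6%) had an unadjusted p under 0.05. The median over the 75 genes of oxidative phosphorylation was -0.23 in young and 0.05 in aged uninjured muscle and 0.27 in young injured muscle, where 8 were higher and 0 lower at an unadjusted p under 0.05, against 1.62% and 1.13% over all genes. Against young injured muscle, 12 genes (0.0952%) passed, all with a more negative log2 fold change in the uninjured leg. They were Alb, Apoa1, Apoa2, Ahsg, Fgb, Gc, Mup3, Serpina1b, Serpina1c, Serpina1d, Ttr and Apom, the first 11 of them on the liver list. All 12 were higher in vehicle replicates 1 and 3 than in the other 9 libraries of uninjured young muscle, and replicate 1 of the NAM/PN injured legs held 81.3 CPM of Alb. Of the 11 mice, 8 gave both legs, and with the mouse as a block 0 genes passed.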

How the data were processed

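Gastrocnemius RNA of 38 legs from 23 mice was sequenced at the 3′ end (QuantSeq). The authors deposited raw counts per gene, made with STAR and HTSeq (version 2.16.2 per the labels) on GRCm38. The annotation release and strand setting were not given in the sources used here. Symbols came from GENCODE M21 for 27518 of 27554 genes, and the 36 without one held 0.00214% of counts.

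The groups were 6 vehicle and 5 NAM/PN libraries of young uninjured legs, with 4128769 to 6717648 counts each. Each library was a separate mouse. The 25 replicate pairs among them differed by at least 6.59 times sampling noise (chi-square per degree of freedom). No molecular identifiers were given in the sources used here, so counts are not taken as independent molecules.

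Counts of all 38 libraries were fitted in edgeR 4.0.16 (R 4.3.3) with filterByExpr, TMM scaling, 8 group coefficients and quasi-likelihood tests, and p-values were adjusted over 12610 genes by Benjamini-Hochberg at 0.05. CPM values are TMM-scaled, and list scores are means of log2(CPM + 1). The procedure was tested on simulated counts of 11879 genes. Alternatives used DESeq2 1.42.0, limma 3.58.1, other scalings, filters and blocks, and left out single libraries.

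The mice that gave both legs, 15 of them, are paired by animal, and the deviations of the legs correlated at -0.294 to 0.236.

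The members, the 35 gene lists and the tests were chosen with earlier results of these data known. Genes were named where they handled NAD, nicotinamide or vitamin B6, where they were among the 6 per direction with the smallest p under the criteria given in the report, or among the 2 per list with the smallest p. Genes outside this rule are said to be chosen after their values were seen. Some genes of the lists are counted in them but not reported here by name.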

Additional observations from a re-analysis of the deposited data

Results flagged for a closer look

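Of 198 sets of group values tested with Dixon's criterion, 9 had a library apart from the rest of its group, where chance gives about 1 in 20, or 9.9. In vehicle muscle these were Gnmt at 29.1 CPM in replicate 3 (the others 0.286 to 10.5), Lifr at 187 CPM in replicate 5 (82.2 to 107), Zbtb16 at 148 CPM in replicate 5 (61.02 to 82.1) and Col1a1 at 556 CPM in replicate 2 (226 to 341). In NAM/PN muscle they were Map1b at 118 CPM in replicate 4 (72.5 to 84.7), Mmp2 at 22.6 CPM in replicate 3 (44.5 to 51.8), Myl1 at 2.94e+04 CPM in replicate 5 (1.89e+04 to 2.17e+04), Alb at 10.9 CPM in replicate 3 (0 to 2.20) and the lymphocyte score at 0 in replicate 2 (0.243 to 0.321). Mmp2 is a matrix protease and Myl1 a fast myosin light chain.

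The effect of NAM/PN differed between uninjured and injured legs of young mice for 12 genes by edgeR's interaction test, with adjusted p-values of 0.0324 to 0.0448. Every one was higher in both vehicle libraries with liver transcripts than in the other 9 uninjured libraries, and the count was 0 without those 2 libraries.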

How the results depend on the processing

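The count of genes that differed between NAM/PN and vehicle in young uninjured muscle was 0 under all 27 alternatives, and that of genes whose effect differed between young and aged uninjured muscle was 0 under all 38. At an unadjusted p under 0.05 the first comparison gave 614 genes, 1074 without NAM/PN replicates 4 and 5, 977 without a filter, 380 with vehicle replicates 4 and 6 alone, and 473 to 756 when single libraries were left out. The count of 12 genes between uninjured and injured legs was 1 with DESeq2 and 19 without a filter. It was 0 without NAM/PN replicates 4 and 5, without both libraries with liver transcripts, in the 19 young libraries alone, without liver genes, with vehicle mice in one description style, in that style without liver transcripts, and with voom weights. Leaving out single libraries gave 0 to 27. It was 0 without vehicle uninjured replicate 1 or 3, NAM/PN uninjured replicate 1, 2, 4 or 5, NAM/PN injured replicate 1 or any vehicle injured library, and 6 without NAM/PN uninjured replicate 3.

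With the mouse as a block that count was 0, and with the title number as a block it was also 0. Title numbers correlated at -0.187 to 0.124 and share only a number. Neither block changed the other 2 counts, and the unadjusted count was 451 with the mouse block and 940 with the title block.

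Of 64 named genes, 54 kept their sign throughout. Without NAM/PN replicates 4 and 5 the log2 fold change was 0.0422 for Nmrk2, -0.53 for Myh3, -0.0192 for Myh8 and -1.08 for Postn. Without both libraries with liver transcripts it was 0.17 for Nmrk2, 0.0609 for Nnmt and 1.09 for Alb. With vehicle replicates 4 and 6 alone it was 0.52 for Nmrk2, 0.18 for Pdxk and 0.42 for Alb. In one description style it was 0.13 for Pdxk and 0.16 for Myh2, and with the slow-fibre covariate 0.11 for Myh7. Leaving out single libraries gave -0.0634 to 0.0835 for Nampt, -0.35 to 0.15 for Nmrk2 and -0.71 to 0.0715 for Nnmt. The cause was not tested. The median over all genes moved by less than 0.1 under every scaling. With 5 against 6 mice at this depth, 45.4% of simulated 2-fold increases were recovered, so differences of that size can go undetected.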
